A study of Homo sapiens with 12 samples.

Results

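The p38 mitogen-activated protein kinase (MAPK) pathway was described here by 9 genes, taken by their symbols as the rows MAPK14, MAPK11, MAPK12, MAPK13, MAP2K3, MAP2K6, MAPKAPK2, MAPKAPK3 and RPS6KA5 of a table of 26485 genes. All 9 were found and all 9 passed the filter on low counts, with 14732 genes tested in all. RNA was sequenced from spheroids of 3 descendants of the established human prostate cancer cell line DU145, with 4 biological replicates of each. DU145KO carries a CRISPR-Cas9 knock-out of ITGA2, the gene of the collagen-binding α2 integrin, and was transfected with nothing further. DU145KO+α2 is the same knock-out with a stably transfected pAWneo2 vector holding α2 integrin cDNA, and DU145KO+vector is the same knock-out with the empty vector. All 12 samples therefore share the edited ITGA2 gene, and all were spheroids of 8000 cells kept in serum-free RPMI medium for 72 hours. The transfected lines had been maintained with geneticin, so that a difference of either one from DU145KO cannot be told apart from transfection and selection. Each construct is represented by 1 line. Between DU145KO+α2 and DU145KO+vector, α2 integrin therefore cannot be told apart from other differences between these lines. The 4 replicates give the spread within a line, and not the spread between lines made alike. The promoter of the cDNA, and whether a line came from 1 clone, are not given in the sources used here.

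The p38 cascade carries stress, cytokine and integrin signals. MAP3 kinases phosphorylate the dual-specificity kinases MAP2K3 (MKK3) and MAP2K6 (MKK6), which phosphorylate a p38 kinase on the threonine and the tyrosine of a Thr-Gly-Tyr motif, and p38 in turn phosphorylates transcription factors and further kinases, among them MAPKAPK2 (MK2), MAPKAPK3 (MK3) and RPS6KA5 (MSK1). The p38 kinases are p38α (MAPK14), p38β (MAPK11), p38γ (MAPK12) and p38δ (MAPK13). The study asked about p38 because α2β1 integrin can signal through it. By western blot, the study found p38 phosphorylation higher in DU145KO+α2 than in DU145KO+vector cells plated on collagen. It was quantified there relative to β-actin and not to total p38. The cascade works through phosphorylation, which was not measured in these data: the values below are transcript levels.

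The 4 kinase genes are shown by the coding stretch around the motif that the MAP2Ks phosphorylate, the feature that puts them in one family. Each stretch was read from the GRCh38 reference genome along the coding exons of the MANE Select transcript in GENCODE, 5′ to 3′ on the coding strand, with the 3 codons of Thr-Gly-Tyr in capitals.
MAPK14: gatgaaatgACAGGCTACgtggccact
MAPK11: gaggagatgACCGGCTATgtggccacg
MAPK12: agtgagatgACTGGGTACgtggtgacc
MAPK13: gccgagatgACTGGCTACgtggtgacc
The stretches lie at chr6:36075881-36075907 (plus strand), chr22:50266989-50267015 (minus strand), chr22:50256140-50256166 (minus strand) and chr6:36136689-36136715 (plus strand), each within 1 coding exon. Of the 27 bases, MAPK12 and MAPK13 share 23 and MAPK14 and MAPK11 share 22, while MAPK11 and MAPK12 share 18. The likeness by sequence thus joins genes of different chromosomes. MAPK14 (chr6:36027782-36111236) and MAPK13 (chr6:36127809-36144524) are neighbours 16572 bases apart, and MAPK12 (chr22:50245450-50261716) and MAPK11 (chr22:50263713-50270767) are neighbours 1996 bases apart, each pair on 1 strand.

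The other members are spread over the genome: MAP2K3 at chr17:21284672-21315232 and MAP2K6 at chr17:69414697-69553865 on the plus strand, MAPKAPK2 at chr1:206684905-206734281 and MAPKAPK3 at chr3:50611520-50649291 on the plus strand, and RPS6KA5 at chr14:90847861-91060641 on the minus strand. No exon of the MANE Select transcript of any member overlapped an exon of another gene of the table. Reads of 50 bases had been counted only where they aligned uniquely. Of the 50-base windows within these exons, 12.6% of those of MAP2K3 occur elsewhere in the genome, as do 6.36% for RPS6KA5, 4.02% for MAPK13 and 1.07% for MAP2K6, and none for the other 5 genes. Over these MANE Select exons, MAP2K3 is the member with the largest share of sequence that unique reads could not cover. The authors' annotation gave shorter lengths for RPS6KA5 and MAP2K6, and the share within it was not computed.

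Total counts were 13948734 to 19988111 per sample, and the detection floor of 3 counts corresponded to 0.150 to 0.215 CPM, a count scaled to the size of its library. Every member was far above it. The least counted member, MAP2K6, had 52 to 123 reads per sample and the most counted, MAPKAPK2, had 2498 to 4191. ITGA2, the targeted gene, was at 15.7 to 25.8 CPM in DU145KO, 13.0 to 20.2 CPM in DU145KO+vector and 259 to 332 CPM in DU145KO+α2. Its level in DU145KO+α2 was higher by 4.11 on the log2 scale than in DU145KO+vector (SE 0.16, edgeR adjusted p = 3.15e-09), while reads of an edited transcript can still be counted and say nothing of the edit itself. All 6 epithelial markers checked were above the floor in every sample. KLK3, a prostate luminal marker, had 0 reads in every sample and was not detected at this depth. The summed level of the epithelial markers was 1289 to 1699 CPM in DU145KO+α2, 1721 to 2000 CPM in DU145KO+vector and 1778 to 2256 CPM in DU145KO. Its part in the differences below was not tested. In these bulk samples, fewer cells of a type and less RNA per cell cannot be told apart.

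On the scale that corrects for transcript length, the RPKM values that the authors deposited (counts scaled to library size and length), the pathway was led by MAPKAPK2 at 59.0 RPKM (mean of 12 samples, 48.6 to 67.6). MAPK14, p38α, followed at 24.5 RPKM (23.0 to 27.2) and MAPKAPK3 at 20.5 RPKM (18.1 to 22.9). The ranges of these 3 genes over the 12 samples did not overlap. MAPK12 (14.4 RPKM, 12.1 to 17.1), MAPK13 (12.7 RPKM, 10.1 to 15.2) and MAP2K3 (11.5 RPKM, 8.52 to 15.2) came next with ranges that did overlap, so that their order is not settled by these samples. RPS6KA5 was at 7.01 RPKM (5.45 to 9.68), overlapping MAP2K3 above it and separate from MAPK11 below. MAPK11, p38β, was at 3.65 RPKM (2.80 to 4.86) and MAP2K6 at 2.66 RPKM (1.63 to 3.67), again with overlap. Among all genes tested these mean levels ran from the percentile 92.3 for MAPKAPK2 and 78.2 for MAPK14 down to 33.1 for MAPK11 and 27.7 for MAP2K6.

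**Figure D1:**
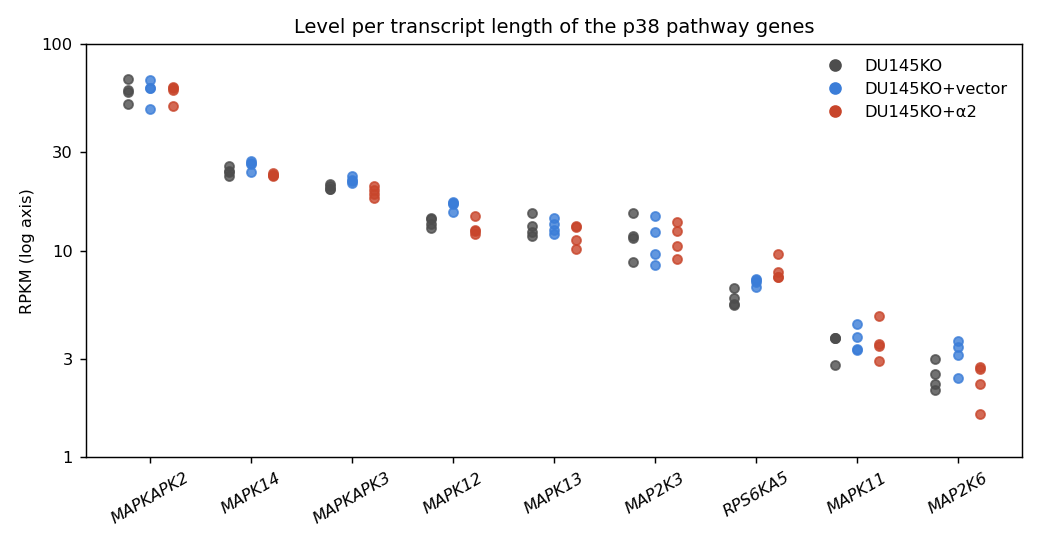
Level of each p38 pathway gene in RPKM on a log axis, 1 point per sample, coloured by line, with the genes in the order of their mean over 12 samples. MAPKAPK2 stands alone above 48 RPKM in all samples, MAPK11 and MAP2K6 lie below 5 RPKM in all samples, and the 3 lines overlap for most genes.

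Of the summed RPKM of the 4 p38 kinases, MAPK14 made up 40.5 to 47.0% (median 44.6%), MAPK12 23.0 to 29.0% (median 26.0%), MAPK13 19.2 to 27.5% (median 22.6%) and MAPK11 5.14 to 9.20% (median 6.78%). All 4 kinase genes were thus transcribed in these spheroids, with p38α the most abundant and p38β the least in each of the 12 samples. MAP2K6 made up 13.3 to 30.1% of the summed RPKM of the 2 activating kinases (median 17.2%), and MAPKAPK3 22.8 to 32.0% of MAPKAPK2 and MAPKAPK3 together (median 25.6%). The lengths behind the RPKM values follow the authors' annotation. The length for RPS6KA5 is 4340 bases against 26829 exon bases in the MANE Select transcript, and for MAP2K6 it is 1880 against 13405, whereas for MAPK14 it is 4570 against 4222. The places of RPS6KA5 and MAP2K6 in this order therefore rest on the annotation that was used.

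Differences between lines were tested on the counts with edgeR's quasi-likelihood test over all genes, with p-values adjusted by the Benjamini-Hochberg method, and a gene is said to have passed at an adjusted p below 0.05 at any fold change. Levels between lines are given below as CPM after TMM normalization. Replicates of the same number deviated together across the lines, and the value of a fit with the replicate number as a block is given where it changed a call of a member. The 3 comparisons share their samples in pairs and are not independent of each other.

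The α2 integrin rescue was first set against the empty vector. Of the 9 members, MAPK12 (p38γ) passed and was lower in DU145KO+α2, none was higher, and none changed by more than 2-fold. This is 1 of 9, beside 11.9% of all genes tested, of which 5.96% were higher and 5.95% lower, and beside 2.21% that passed with a fold change above 2. An unadjusted p below 0.05 was seen for 4 members, beside 24.9% of all genes. With the replicate block 4 of 9 passed, all lower in DU145KO+α2 (MAPK14, MAPK12, MAP2K6 and MAPKAPK3), beside 26.5% of all genes. The groups did not overlap for 4 members (MAPK14, MAPK12, MAPKAPK3 and RPS6KA5), beside 17.2% of all genes. The median log2 difference of the 9 members was −0.15, between −0.44 and 0.20, and that of all genes tested was −0.01.

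MAPK12 stood at 22.1, 23.1, 23.6 and 27.4 CPM in the 4 replicates of DU145KO+α2 and at 31.5, 28.4, 31.5 and 31.6 CPM in DU145KO+vector. In DU145KO it was at 26.8, 24.3, 25.4 and 26.8 CPM. All 4 samples of DU145KO+α2 were below all 4 of DU145KO+vector, and DU145KO lay between, overlapping the α2 line only. MAPK12 fell by 21.8% against the vector line, which is −0.36 on the log2 scale (SE 0.08, 95% interval −0.54 to −0.17, edgeR adjusted p = 0.01). It passed in all 20 alternatives that refitted this comparison, with a log2 difference between −0.42 and −0.32. The exact permutation test, two-sided, gave 0.0286, the smallest p that 4 samples against 4 allow. Groups without overlap always reach it, so that it adds nothing to the separation. MAPK14, MAPKAPK3 and RPS6KA5, which did not pass, reached it too.

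MAPK14, p38α, was at 107, 104, 106 and 106 CPM in DU145KO+α2 and at 109, 123, 122 and 120 CPM in DU145KO+vector. The groups were separate, but by less than 2 CPM between replicate 1 of each line. Its log2 difference of −0.16 (SE 0.06, 95% interval −0.30 to −0.02) did not pass (edgeR adjusted p = 0.112), and passed with the replicate block (adjusted p = 0.0255). MAPK13, p38δ, was at 64.9 to 84.5 CPM in DU145KO+α2 and 76.8 to 91.1 CPM in DU145KO+vector, overlapping, with a log2 difference of −0.15 (95% interval −0.37 to 0.08). MAPK11, p38β, was at 7.21 to 11.9 CPM and 8.06 to 10.9 CPM in these lines, with a log2 difference of −0.02 and an interval of −0.38 to 0.35. A change of p38β within that interval was not detectable in these samples.

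Of the activating kinases, MAP2K6 was at 4.97, 5.10, 3.07 and 4.27 CPM in DU145KO+α2 and 6.82, 4.52, 5.87 and 6.41 CPM in DU145KO+vector. Replicate 2 of the vector line lay within the range of the α2 line. Its log2 difference of −0.44, the largest among the members in this comparison, had an SE of 0.18 and an interval of −0.85 to −0.03, and did not pass (edgeR adjusted p = 0.139; with the replicate block 0.0351). MAP2K3 overlapped throughout, at 21.4 to 32.9 CPM and 20.1 to 35.2 CPM, with a log2 difference of 0.02 (95% interval −0.42 to 0.47). With the replicate block the log2 difference of MAP2K3 was 0.03 with a smaller SE of 0.07 (edgeR adjusted p = 0.789).

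Among the kinases downstream of p38, MAPKAPK3 was at 61.5, 64.9, 57.4 and 59.7 CPM in DU145KO+α2 and 67.8, 67.4, 70.1 and 72.6 CPM in DU145KO+vector, without overlap. The difference was small, −0.19 on the log2 scale (SE 0.06, 95% interval −0.33 to −0.05). It missed the threshold (edgeR adjusted p = 0.0625), and passed with the replicate block (0.0147), in DESeq2 (0.0409) and without replicate 2 of DU145KO+α2 (0.0388). MAPKAPK2, the most abundant member, had a log2 difference of −0.04 (95% interval −0.28 to 0.20). RPS6KA5 was the member with the highest log2 difference, 0.20 (SE 0.10, 95% interval −0.02 to 0.42, adjusted p = 0.21). All its samples of DU145KO+α2 were above those of DU145KO+vector, and without replicate 4 of DU145KO+α2 the log2 difference was 0.10 (adjusted p = 0.55).

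**Figure D2:**
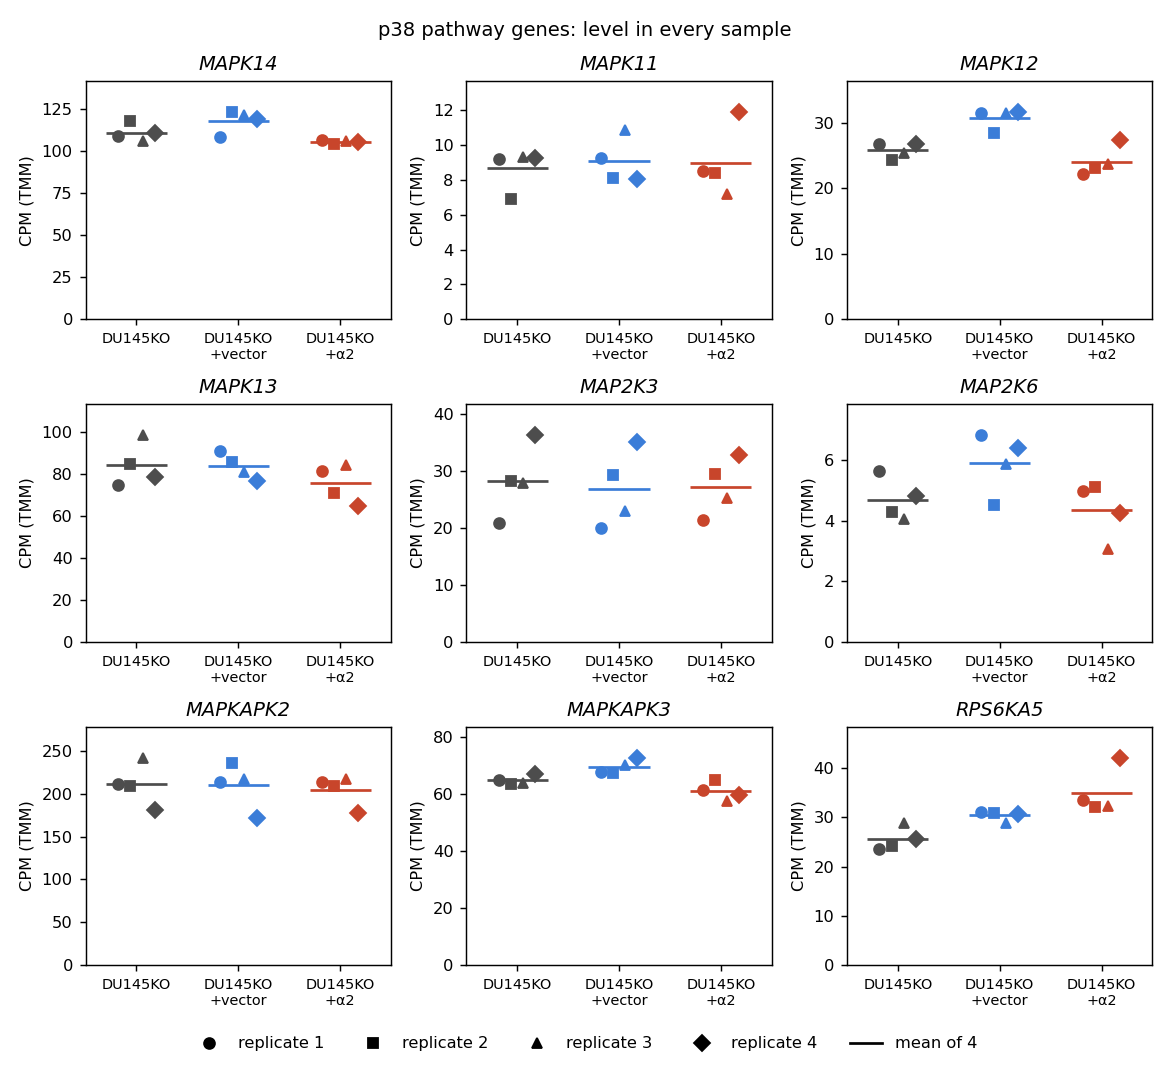
CPM after TMM normalization of each p38 pathway gene in the 12 samples, by line, with the replicate number as the symbol and a bar at the mean of 4; each axis starts at 0. MAPK12 is lower in all 4 DU145KO+α2 samples than in DU145KO+vector, RPS6KA5 is higher in all 4 DU145KO+α2 samples than in DU145KO, and MAP2K3 is lowest in replicate 1 and highest in replicate 4 of each line.

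Against the untransfected knock-out, RPS6KA5 was the member that passed. It encodes MSK1, a nuclear kinase that phosphorylates CREB1, ATF1 and histone H3 downstream of p38 and ERK. RPS6KA5 was at 33.6, 32.0, 32.3 and 42.1 CPM in DU145KO+α2 and at 23.5, 24.1, 28.8 and 25.6 CPM in DU145KO. The groups did not overlap, and replicate 4 of DU145KO+α2 stood well above the other samples. RPS6KA5 rose by 37.0% in DU145KO+α2, which is 0.45 on the log2 scale (SE 0.10, 95% interval 0.24 to 0.67, edgeR adjusted p = 0.0071). It passed in all 20 alternatives that refitted this comparison, with a log2 difference of 0.35 to 0.52, the lowest of them without replicate 4 of DU145KO+α2 (adjusted p = 0.0237).

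This is 1 of 9 members, beside 8.17% of all genes tested (3.09% higher and 5.08% lower), and none passed with a fold change above 2, beside 2.1% of all genes. The other 8 did not pass with or without the replicate block. Their log2 differences ran from −0.16 for MAPK13 to 0.05 for MAPK11, and the median of all 9 was −0.07 against 0.00 for all genes. MAPK12, which was lower than in the vector line, had a log2 difference of −0.10 here (95% interval −0.29 to 0.09, adjusted p = 0.541), with overlapping groups. MAP2K6 also had −0.10 (95% interval −0.52 to 0.31), and MAPK14 had −0.07 (95% interval −0.21 to 0.07). RPS6KA5 was also the only member whose groups did not overlap, beside 12.9% of all genes.

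The empty vector line was then set against DU145KO, both without α2 integrin cDNA. None of the 9 members passed in edgeR, DESeq2 or voom with limma, beside 2.34% of all genes in edgeR (0.496% higher, 1.84% lower, and 0.835% with a fold change above 2). These 344 genes numbered 160 without replicate 3 of DU145KO+vector, 177 to 193 without its replicate 2 or 4 or replicate 1 or 2 of DU145KO, and 528 without replicate 4 of DU145KO. An unadjusted p below 0.05 was seen for 2 members, beside 15% of all genes. With the replicate block MAPK12 (log2 difference 0.25, adjusted p = 0.0188) and RPS6KA5 (adjusted p = 0.0437) were higher in DU145KO+vector, beside 13.4% of all genes. For MAPK12, MAPKAPK3 and RPS6KA5 every sample of DU145KO+vector was above every sample of DU145KO, beside 8.76% of all genes without overlap. MAPK12 was at 28.4 to 31.6 CPM against 24.3 to 26.8 CPM, with an interval of 0.07 to 0.44 on the log2 scale (edgeR adjusted p = 0.137 without the block). RPS6KA5 was at 28.9 to 31.1 CPM against 23.5 to 28.8 CPM, with a log2 difference of 0.25 (95% interval 0.03 to 0.47, adjusted p = 0.21). MAPKAPK3 was at 67.4 to 72.6 CPM against 63.6 to 66.9 CPM, a log2 difference of 0.10 (95% interval −0.04 to 0.24). MAP2K6 had the largest difference, 0.34, with an interval from −0.07 to 0.75.

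The order of the lines by mean level was not the same for all members with a call in any comparison, with or without the block. RPS6KA5 had its lowest mean level in DU145KO and its highest in DU145KO+α2, with the vector line between. MAPK12, MAPK14, MAPKAPK3 and MAP2K6 had their highest mean in DU145KO+vector and their lowest in DU145KO+α2, and of these MAPK12 alone passed without the block. The median log2 difference of the 20 nearest tested genes lay between −0.10 and 0.11 for every member and comparison. For MAPK12 it was 0.01 where MAPK12 itself was at −0.36.

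**Figure D3:**
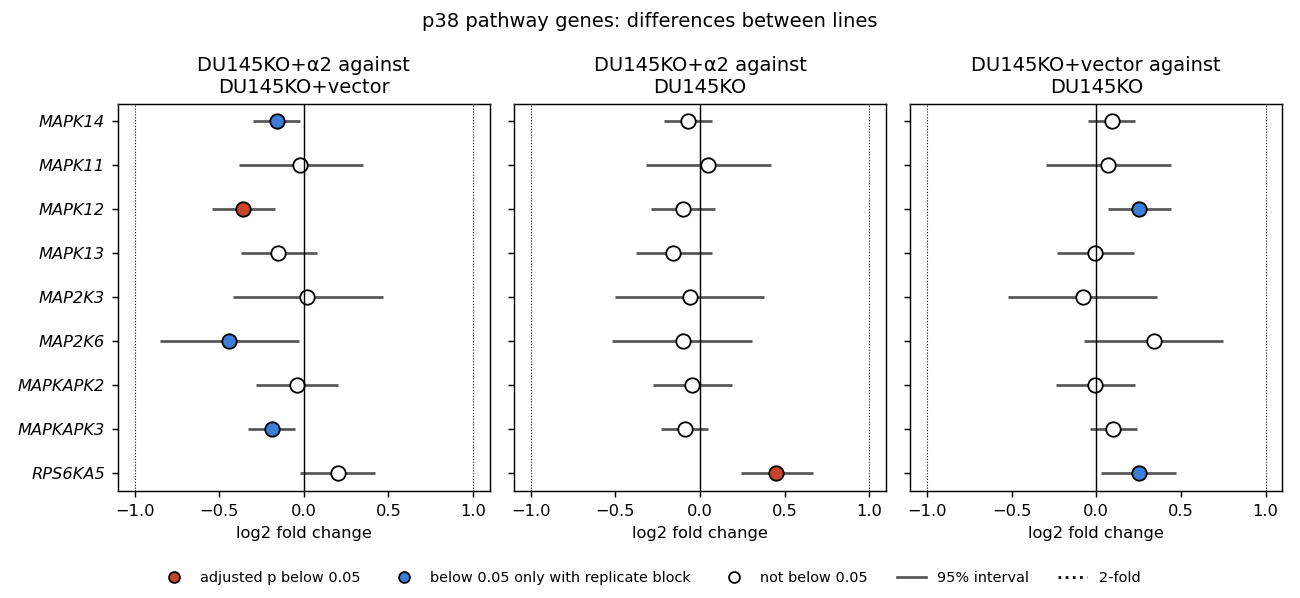
Log2 fold change of each p38 pathway gene in the 3 comparisons, with its 95% interval. MAPK12 in the first panel and RPS6KA5 in the second (red) passed at an adjusted p below 0.05, blue points passed only with the replicate block, and every point lies within the dotted lines at 2-fold.

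The variation of 2 members followed the replicate number and not the line, a pattern that was looked for after the values were seen. MAP2K3 was at 21.0, 28.2, 27.9 and 36.4 CPM in the 4 samples of DU145KO in the order of their numbers, at 20.1, 29.4, 23.0 and 35.2 CPM in DU145KO+vector and at 21.4, 29.4, 25.3 and 32.9 CPM in DU145KO+α2. Replicate 1 was the lowest and replicate 4 the highest in all 3 lines. Of the sum of squares of its log2 CPM, 93.9% lay between replicate numbers and 1.48% between lines. MAPKAPK2 was at 211, 209, 242 and 182 CPM in DU145KO, 214, 237, 217 and 172 CPM in DU145KO+vector and 214, 209, 217 and 177 CPM in DU145KO+α2. Replicate 4 was the lowest of each line, and 84.6% of the sum of squares lay between numbers.

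The replicate number passed as a term of the blocked model for both genes (edgeR adjusted p = 1.66e-05 for MAP2K3 and 0.0012 for MAPKAPK2), and for none of the other 7 members. Over all genes tested it passed for 35.7%, with a median share of 39.1% of the sum of squares, so that 2 of 9 is not above the background. Conversely, the line held 76.0% of the sum of squares for MAPK12, 73.1% for MAPKAPK3, 71.6% for RPS6KA5 and 60.8% for MAPK14, against a median of 27.8% over all genes. It held 39.3% for MAP2K6, and less than that median for MAPK13 (22.5%), MAPKAPK2 (1.61%), MAPK11 (1.59%) and MAP2K3 (1.48%). How many of all genes reach such high shares was not computed. What the replicate numbers stand for is not given in the labels.

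**Figure D4:**
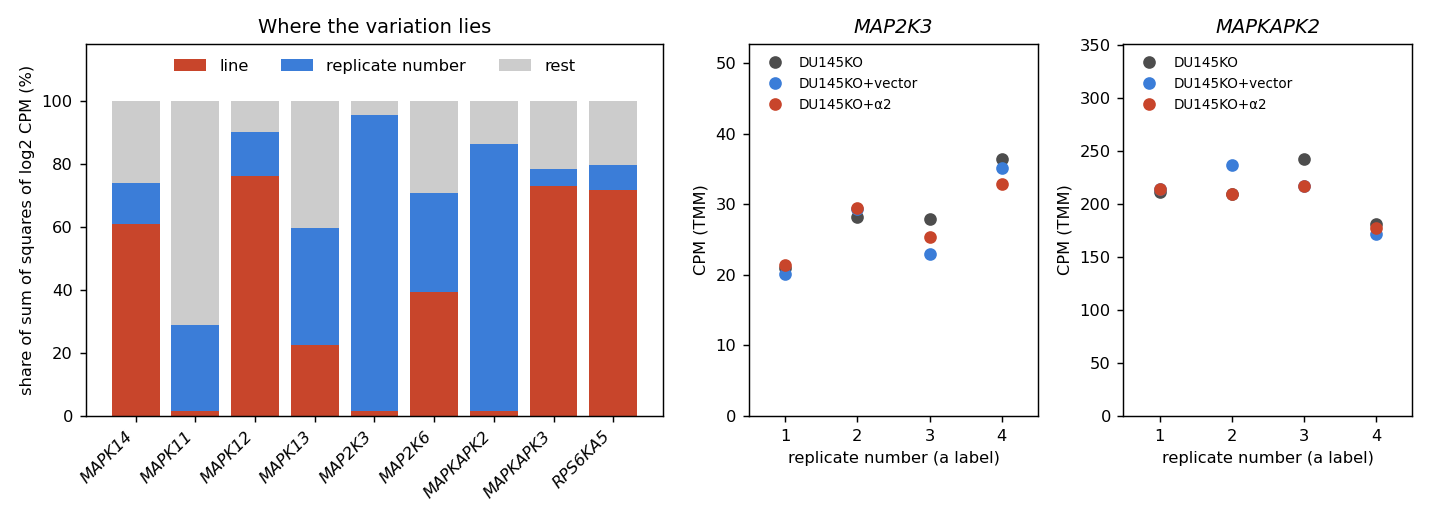
Left, the share of the sum of squares of log2 CPM over the 12 samples that lies between lines (red), between replicate numbers (blue) and in the rest (grey), for each p38 pathway gene. Middle and right, CPM of MAP2K3 and MAPKAPK2 by replicate number, a label without order; the 3 lines lie close together within a number, and replicate 4 is the highest for MAP2K3 and the lowest for MAPKAPK2.

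The rest of the pathway was followed in 57 further genes on 5 lists, of which 53 were tested. Between DU145KO+α2 and DU145KO+vector 5 of the 53 were higher and 4 lower, none by more than 2-fold, beside 11.9% of all genes tested (5.96% higher and 5.95% lower), and the median log2 difference was 0.04. With the replicate block 9 were higher and 7 lower, beside 26.5% of all genes. Of 24 upstream kinases and adaptors, 3 rose. MAP3K20 (ZAK), a MAP3 kinase of the ribotoxic stress response, was at 386 ± 31.8 CPM (SD, n = 4) against 272 ± 23.0 CPM, a log2 difference of 0.50 (SE 0.09, edgeR adjusted p = 0.00149). GADD45A and GADD45G, stress-induced binders of the MAP3 kinase MAP3K4, rose by 0.50 (SE 0.13) and 0.79 (SE 0.14) on the log2 scale. TAOK3, a MAP3 kinase of the TAO family, fell by 0.40 (SE 0.09), and TRAF2, an adaptor of tumour necrosis factor receptors, fell by 0.42 (SE 0.11). MAP2K4, which can activate both JNK and p38, had a log2 difference of 0.06 (SE 0.07, adjusted p = 0.663).

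None of the 3 scaffold genes passed, with log2 differences from −0.03 to 0.07. Of 6 phosphatases tested out of 9 listed, DUSP16, which dephosphorylates JNK and p38, rose by 0.48 (SE 0.11, edgeR adjusted p = 0.00735). DUSP1, the phosphatase induced early by stress, was at 17.8 to 46.3 CPM in the 12 samples with replicate 1 the highest of each line, and had a log2 difference of −0.11 (SE 0.32). Of the 4 other downstream kinases, RPS6KA4 (MSK2), the paralog of RPS6KA5, was at 44.6 ± 5.12 CPM against 53.9 ± 2.61 CPM and fell by 0.27 (SE 0.08, adjusted p = 0.0377). The paralogs thus had log2 differences of opposite sign, of which that of RPS6KA4 passed, and the difference between them was not tested. MAPKAPK5 had a log2 difference of 0.12 (SE 0.07, adjusted p = 0.316), and exons of ADAM1A cover 19.2% of its own.

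Of 16 substrates tested, CDC25B, the phosphatase that admits cells to mitosis and a target of p38 and MK2 in the G2 checkpoint, rose by 0.58 (SE 0.10, edgeR adjusted p = 0.00105). MEF2C, a transcription factor phosphorylated by p38, was at 3.75 ± 0.535 CPM against 6.51 ± 0.808 CPM and fell by 0.78 (SE 0.21, adjusted p = 0.022). On a list of transcripts known to depend on p38 in other cells, 2 of 11 tested rose and 1 fell, beside 5.96% and 5.95% of all genes. With the replicate block 4 of these 11 were higher and 1 lower, beside 26.5% of all genes. MMP1, the interstitial collagenase, was at 43.5 ± 3.22 CPM in DU145KO+α2 against 8.24 ± 1.24 CPM, a log2 difference of 2.39 (SE 0.17, adjusted p = 8.18e-07). The study singled out MMP1 on these samples, so that it is not independent evidence for the list, and WTAPP1 on the opposite strand covers 7.61% of its exon bases. The study also reported less MMP1 mRNA under a p38 inhibitor in DU145KO+α2 cells, plated on collagen or fibronectin and not grown as spheroids. VEGFA rose by 0.47 (SE 0.14) and PLAUR, the urokinase receptor, fell by 0.57 (SE 0.15). The cytokine transcripts IL1B and TNF were too low to be tested. Of 9 kinases of the ERK, JNK and ERK5 cascades, MAP2K5 alone passed, with a rise of 0.29 (SE 0.09, adjusted p = 0.0387), and the log2 differences of all 9 ran from −0.02 to 0.29.

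Several of these calls were lost when 1 library was left out. TRAF2 did not pass without replicate 1 or 3 of DU145KO+α2 or replicate 4 of DU145KO+vector (edgeR adjusted p = 0.0573 to 0.065), nor did PLAUR without those or replicate 2 of DU145KO+vector (0.051 to 0.0713). GADD45A was lost without replicate 1 or 3 of DU145KO+α2 or replicate 2, 3 or 4 of DU145KO+vector (0.0562 to 0.0648), and MEF2C without those or replicate 4 of DU145KO+α2 (0.053 to 0.0672). VEGFA was lost without replicate 1, 3 or 4 of DU145KO+α2 or replicate 2 or 4 of DU145KO+vector (0.053 to 0.117). RPS6KA4 was lost without replicate 1 or 3 of DU145KO+α2 or any replicate of DU145KO+vector (0.0503 to 0.114), and MAP2K5 without any replicate of DU145KO+α2 or replicate 3 or 4 of DU145KO+vector (0.0571 to 0.121). MAP3K20, TAOK3, GADD45G, DUSP16, CDC25B and MMP1 passed without each of the 12 libraries in turn.

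**Figure D5:**
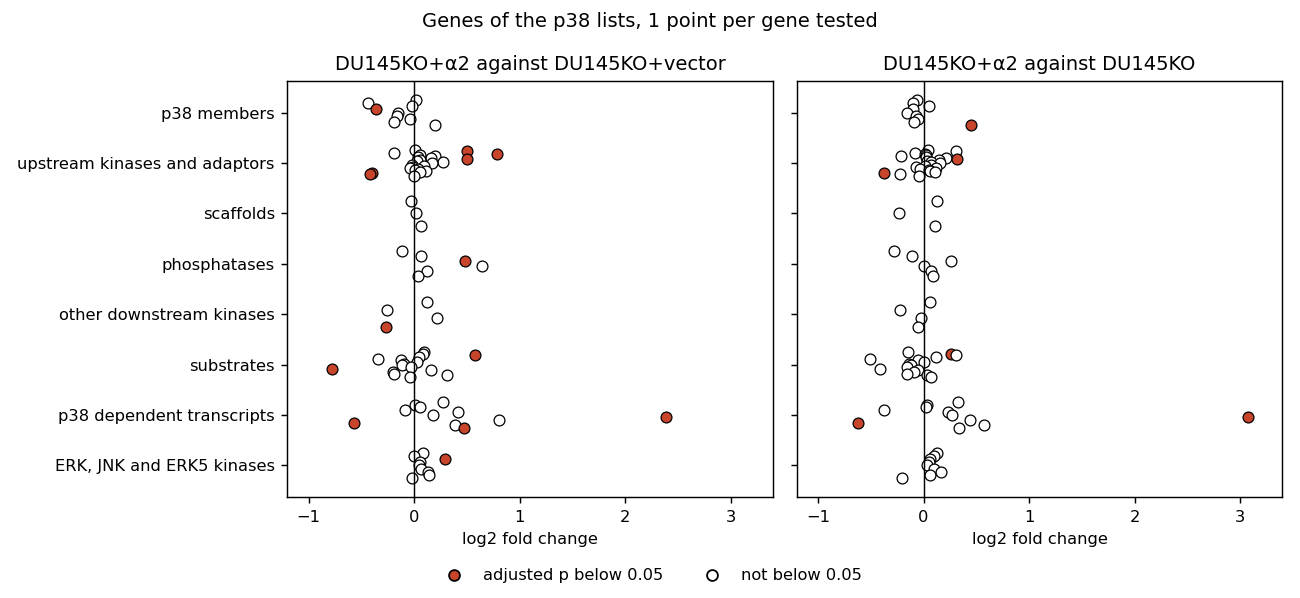
Log2 fold change of each tested gene of the p38 lists, 1 point per gene, for DU145KO+α2 against DU145KO+vector (left) and against DU145KO (right), with genes at an adjusted p below 0.05 in red. MMP1 is the point beyond 2 in both panels; all members lie between −0.44 and 0.45.

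Against DU145KO, 2 of the 53 further genes rose in DU145KO+α2 and 1 fell, beside 8.17% of all genes tested (3.09% higher and 5.08% lower). With the replicate block 5 were higher and 3 lower, beside 22.3% of all genes. MAP3K20 rose by 0.32 (edgeR adjusted p = 0.0373), ATF2, a transcription factor phosphorylated by p38 and JNK, by 0.26 (adjusted p = 0.0186), and TAOK3 fell by 0.37 (adjusted p = 0.0164). All 3 calls were lost without replicate 4 of DU145KO+α2 (adjusted p = 0.0573 for TAOK3, 0.068 for ATF2 and 0.086 for MAP3K20), and without replicate 1 of DU145KO 6 genes passed. MAP3K20 (ZAK in the table) was also lost without replicate 3 (0.0872) or 4 (0.0932) of DU145KO and replicate 1 (0.0803) or 3 (0.092) of DU145KO+α2, TAOK3 without replicate 3 of DU145KO (0.0512) and ATF2 without replicate 2 of DU145KO (0.0544). Of the p38 dependent transcripts MMP1 rose by 3.07 on the log2 scale and PLAUR fell by 0.62 (adjusted p = 0.0167), the latter lost without replicate 3 of DU145KO (0.054) or replicate 1 (0.0533) or 3 (0.0597) of DU145KO+α2. With the replicate block 4 of the 11 tested on this list were higher and 1 lower.

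Between DU145KO+vector and DU145KO, 1 of the 53 passed, beside 2.34% of all genes. GADD45G was at 5.12 ± 0.381 CPM (SD, n = 4) in DU145KO+vector and 8.75 ± 0.892 CPM in DU145KO, and fell by 0.77 (SE 0.14, edgeR adjusted p = 0.00818). In DU145KO+α2 it was at 8.83 ± 1.47 CPM, with a log2 difference of 0.01 from DU145KO. With the replicate block 3 genes were higher and 6 lower in DU145KO+vector, beside 13.4% of all genes.

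The genes whose pattern over the 12 samples was most like that of a member were found by the root mean square difference of centred log2 CPM, among 12850 genes. For MAPK12, whose own SD was 0.179, they were SPRYD4 (0.063), VAV2 (0.070) and PDZD11 (0.071). For RPS6KA5, whose own SD was 0.227, they were STAG3L4 (0.108), CFL2 (0.110) and ACOT4 (0.113). The nearest patterns to RPS6KA5 were thus farther from it, relative to its own SD, than those to MAPK12.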

How the data were processed

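RNA of 12 spheroid samples was sequenced from stranded mRNA libraries. The authors aligned single-end reads of 50 bases to hg38 with TopHat2 2.1.0, after bcl2fastq 1.8.4, counted uniquely aligned reads per gene with Subread 1.5.0, and deposited these counts without normalization. The strand setting of the counting is not given in the sources used here. The authors also deposited RPKM values, made after TMM normalization with 1 length per gene. The counts were used for all tests and CPM values, and the RPKM values only for levels between genes. Of the 26485 rows, 42 carried no symbol and were used by their ID.

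Tests were run on the counts with edgeR 4.0.16 in R 4.3.3 (TMM, filterByExpr with a minimum count of 10, robust quasi-likelihood F-test, 1 factor for the line, all 12 samples), with the Benjamini-Hochberg adjustment over 14732 genes. DESeq2 1.42.0 and voom with limma 3.58.1, the test of the study, were alternatives, as were DESeq2 size factors, library size alone, no filter, at least 10 counts in every sample, the compared groups only, a replicate block, a fold change above 2, and each sample left out in turn. Intervals of log2 differences took the SE with 9 residual degrees of freedom and are approximate. The scripts were tested on simulated data. There edgeR recovered 45.9% of the genes changed by 0.5 on the log2 scale and 87.5% of those changed by 1. Changes of the size seen for the members could thus go without a call in that setting. The simulated data had no replicate effect, and a far smaller share of genes was changed than passed against DU145KO+vector. These rates therefore do not carry over to the members. No molecular identifiers were used, so that a floor covers counting error alone. In all 18 pairs of replicates within a line, the samples differed beyond sampling noise (chi-square per degree of freedom 7.39 to 25.4).

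Samples with the same replicate number deviated together in all 12 pairs of samples (correlation 0.135 to 0.554, mean 0.378). The numbers, taken from the sample titles, were therefore read as pairing the samples. For different numbers the correlation was −0.29 to 0.149 (mean −0.126), so that the ranges overlapped slightly. Deviations were taken from the mean of each line, so that the mean for different numbers largely follows from that for the same number. The SEs, intervals and exact permutation p printed come from the unpaired design, and blocked values are named as such. Named genes are the 9 members, ITGA2, the genes of the p38 lists that passed in a comparison (at most 6 per list), MAP2K4, MAPKAPK5, RPS6KA4 and DUSP1, and the 3 genes of most like pattern for each member that passed. The members and lists were chosen with earlier results of these data known. KLK3 is named as a marker, IL1B and TNF as too low to test, and ADAM1A and WTAPP1 for their overlap, the last 4 after the values were seen. Positions are from GENCODE on GRCh38. Some genes of the marker lists are not reported here. Western blots and inhibitor experiments were not analysed here.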

Additional observations from a re-analysis of the deposited data

Results flagged for a closer look

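Within a line, 4 values stood apart from the other 3 samples of their group by Dixon's test, where chance alone would give 1.5 among the 30 groups tested. The groups tested were not of members alone, while all 4 values were of members. The number after each is the gap to the nearest sample as a share of the range of the group. RPS6KA5 in replicate 4 of DU145KO+α2 was at 42.1 CPM against 32.0 to 33.6 CPM in the others (0.844), and the call of RPS6KA5 against DU145KO held without it. RPS6KA5 in replicate 3 of DU145KO+vector was at 28.9 CPM against 30.8 to 31.1 CPM (0.838). MAPK12 in replicate 2 of DU145KO+vector was at 28.4 CPM against 31.5 to 31.6 CPM (0.955), and MAPK12 was lower in DU145KO+α2 with and without it. MAPK11 in replicate 2 of DU145KO was at 6.90 CPM against 9.20 to 9.34 CPM (0.94).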

How the results depend on the processing

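The calls of MAPK12 against DU145KO+vector and of RPS6KA5 against DU145KO held in every alternative at an adjusted p below 0.05, and neither gene changed by more than 2-fold, so that a fold change above 2 left 0 members and 0 of the other p38 pathway genes in any comparison. With the replicate block, members that passed went from 1 to 4 against DU145KO+vector, stayed at 1 for DU145KO+α2 against DU145KO, and went from 0 to 2 for DU145KO+vector against DU145KO. The other pathway genes went from 9 to 16, from 3 to 8 and from 1 to 9, and all genes from 1754 to 3911, 1203 to 3286 and 344 to 1980. DESeq2 called 2 members against DU145KO+vector, and 587 genes between DU145KO+vector and DU145KO. Leaving out 1 sample gave 1 to 2 members against DU145KO+vector (2 without replicate 2 of DU145KO+α2). The other pathway genes then numbered 5 to 10 against DU145KO+vector, 0 to 6 for DU145KO+α2 against DU145KO and 1 to 2 for DU145KO+vector against DU145KO (2 without replicate 4 of DU145KO). RPS6KA4 was lost in a fit of the compared groups only (adjusted p = 0.0602) and, with MAP2K5, without a filter (0.0565 and 0.0506), and MAP3K20 (ZAK) against DU145KO when DU145KO+vector was left out of the fit (0.0545). The cause of these moves was not tested.

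Among the differences that were recomputed under each alternative (those of the members, ITGA2, MAP2K4, MAPKAPK5, RPS6KA4 and DUSP1, and of the other named pathway genes where they passed), the sign turned in no alternative other than leaving out 1 sample, and then for genes that did not pass. Against DU145KO+vector the log2 difference then ran from −0.18 to 0.082 for MAPK11, −0.088 to 0.18 for MAP2K3, −0.12 to 0.023 for MAPKAPK2 and −0.30 to 0.13 for DUSP1. For DU145KO+α2 against DU145KO it ran from −0.11 to 0.16 for MAPK11, −0.17 to 0.084 for MAP2K3, −0.19 to 0.045 for MAP2K6, −0.11 to 0.026 for MAPKAPK2, −0.11 to 0.016 for RPS6KA4 and −0.46 to 0.13 for DUSP1. For DU145KO+vector against DU145KO it ran from −0.030 to 0.12 for MAPK11, −0.054 to 0.077 for MAPK13, −0.24 to 0.061 for MAP2K3, −0.072 to 0.078 for MAPKAPK2 and −0.40 to 0.23 for DUSP1. Other scalings moved the median of all genes by at most 0.009 on the log2 scale. The SEs of MAP2K3, MAP2K6 and MAPK11, 0.16 to 0.20 against DU145KO+vector, limit what the unpaired fit could detect for them. With the replicate block the SE was 0.07 for MAP2K3, 0.15 for MAP2K6 and 0.14 for MAPK11.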
